A study of Mus musculus with 82 samples.

Results

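The genes described here are 40 interferon response genes, a named list of interferon-stimulated and antigen-transport genes, each read from its brightest probe set. Of the 40, 35 had a probe set of their own on the array, among 12394 genes that did, and all 35 were bright enough to be tested with the 8593 genes that passed a filter on low values. Isg15 was represented only by a probe set that it shares with Gm9706, and Ddx58, Ifi44, Xaf1 and Ly6e had no probe set listed, so these 5 members were not analysed here.

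The 82 mouse oligonucleotide arrays measured RNA of oil granulomata, the inflamed tissue that forms in the peritoneum after injection of pristane, a mineral oil that induces plasma cell tumors. All mice were BALB/c.iMycEμ, a BALB/c strain that carries a Myc transgene within its immunoglobulin heavy chain locus, all were given pristane at an age of at least 8 weeks, and no untreated or transgene-free mice were among the samples. A laser cut plasma cells, recognised by a methyl green pyronin stain, out of frozen sections (captured cells), and undissected sections gave RNA of the whole granuloma, which contains the plasma cells as well. Study 2 held 30 arrays of captured cells and 15 of whole granuloma, from 15 specimens each, with 3 specimens at each of days 7, 17, 33, 49 and 105. Study 1, an independent cohort, held 25 arrays of captured cells from 15 specimens (days 7, 17, 33, 46 and 104) and 12 of whole granuloma from 8 specimens (days 7, 17, 33 and 104), and its day 104 was 1 specimen in both tissues. The labels do not say how many mice or sections lie behind a specimen code, so p-values measure the spread between specimens as coded.

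Interferons are signalling proteins that infected or stressed cells release. Type I interferons act through a receptor that activates a complex containing STAT2 and IRF9, which binds interferon-stimulated response elements, while type II interferon (interferon gamma) has a receptor of its own and acts on genes with gamma-activated sites. The induced genes encode RNA sensors, inhibitors of viral replication, immunity-related GTPases that attack intracellular microbes, and the transporter and chaperone that load peptides on MHC class I molecules.

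RefSeq promoter windows of the GRCm38.p6 assembly, from 250 bases before to 50 bases after a gene's start, were given for 29 of the 35 members. The letters of an interferon-stimulated response element, GAAA, 2 bases of any kind and GAAA again, on either strand, stood in the windows of 13 of 29 members (44.8%), against 3.993% of the 27025 genes with a window. The letters TTCNNNGAA, those of a gamma-activated site, stood in 9 of 29 members (31.0%), against 9.554% of all genes, and 1 of these matches in the members overlapped a match to the first motif. Such a match describes the letters and not a bound site. The stretches of 4 members that moved together in one specimen described further on are shown with the matches to the first motif, or to its reverse complement, in capitals. They lie upstream of the start that the window uses, on the gene's strand, at chr19:34640750-34640848 (Ifit1, plus strand), chr19:34583338-34583451 (Ifit3, plus strand), chr12:26456528-26456607 (Rsad2, minus strand) and chr3:142620569-142620648 (Gbp2, plus strand). The annotated span of Ifit3 begins further upstream, at base 34583119, so its stretch lies within the gene's span.
Ifit1: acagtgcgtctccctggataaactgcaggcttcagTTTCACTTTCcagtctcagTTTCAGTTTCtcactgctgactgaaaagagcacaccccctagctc
Ifit3: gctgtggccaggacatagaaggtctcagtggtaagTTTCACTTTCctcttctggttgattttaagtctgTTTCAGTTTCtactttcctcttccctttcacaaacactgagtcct
Rsad2: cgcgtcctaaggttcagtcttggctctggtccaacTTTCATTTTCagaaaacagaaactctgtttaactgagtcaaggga
Gbp2: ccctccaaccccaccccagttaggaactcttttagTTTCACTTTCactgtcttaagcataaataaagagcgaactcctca
Ifit1 and Ifit3, which encode proteins that bind foreign RNA, each had 2 matches in the stretch, and Rsad2 and Gbp2 had 1 each.

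The deposited log2 values sat on different levels in the 4 sets of arrays. Array medians ran from 5.31 to 5.64 in captured cells and from 7.11 to 7.33 in whole granuloma of study 2, and from 4.97 to 5.11 in captured cells and from 5.73 to 5.82 in whole granuloma of study 1. Captured cells were therefore compared with whole granuloma on values quantile-normalized across all arrays, and days were compared within a study and tissue on the values as deposited. The difference between control probe sets at the 3-prime and 5-prime ends of Gapdh and beta-actin is a measure of RNA shortening, whose source was not tested. It was 4.14 ± 0.90 in captured cells and 1.61 ± 0.13 in whole granuloma of study 2, and 4.49 ± 0.68 in captured cells and 3.19 ± 0.36 in whole granuloma of study 1 (log2, SD over arrays). Of 9 plasma cell markers, 6 were higher and none lower in captured cells of study 2, and 4 were higher and none lower in study 1. Of 9 macrophage markers, captured cells had 1 higher and 6 lower in study 2 and all 9 lower in study 1. The summed macrophage level (log2) ranged over 11.3 to 13.9 in captured cells, against 11.6 to 14.3 in whole granuloma of study 2, and over 11.2 to 13.8 in captured cells, against 13.7 to 14.5 in whole granuloma of study 1, so macrophage transcripts were present in both. The part of these cells in the tissue differences given next was not tested. In such mixed samples fewer cells of a type and less RNA per cell cannot be told apart. In study 2, specimen 1 of day 105 stood apart for the interferon genes in both tissues and is described before the days.

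In study 2, captured cells and whole granuloma differed in 19 of the 35 members (limma, Benjamini-Hochberg adjusted p under 0.05 over all genes tested). Lgals3bp, Tapbp, Oasl2, Dhx58 and Tap2 were the members furthest below the granuloma, and Zbp1, Ifit1, Eif2ak2, Mx1 and Tap1 the furthest above it. The 19 are 54.3% of the members, against 69.8% of all genes tested. The split was 7 higher (20%) and 12 lower (34.3%), while 34.4% of all genes were higher and 35.4% lower. Without specimen 1 of day 105 it was 8 higher and 11 lower, with 68.2% of all genes past the threshold in either direction. With the 3-prime to 5-prime difference as a covariate it was 3 higher and 6 lower, and 13.8% and 26.4% of all genes. The covariate ended the calls of Irf1, Irf7, Zbp1, Ifit1, Samhd1, Gbp3, Tap1, Tap2, Trim21 and Nmi. It differed strongly between these tissues (4.14 ± 0.90 against 1.61 ± 0.13), so covariate and tissue cannot be cleanly told apart. A lost call therefore need not mean a smaller difference. Irf1 and Samhd1 were at -0.44 and -0.59 with the covariate, against -0.39 and -0.28 without it. Without scaling between arrays, with the median gene at -1.68, the split was 0 higher and 34 lower, and 0.512% and 96.3% of all genes. The median difference of captured minus granuloma was -0.22 over the members and -0.02 over all genes.

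In study 1 the count was 17 of 35, which is 48.6%, against 60.5% of all genes. In captured cells 3 members were higher (8.57%) and 14 lower (40%), against 31.5% higher and 29.0% lower over all genes. With the 3-prime to 5-prime covariate the 14 lower calls stayed and the calls of Zbp1, Tap1 and Nmi were lost. On the deposited values, with the median gene at -0.60, the split was 1 higher and 28 lower, and 7.67% and 60.2% of all genes. The median difference was -0.37 over the members and 0.06 over all genes. Oasl2, Gbp2, Eif2ak2, Ifit2 and Ifit1 were furthest below the granuloma, and Zbp1 was furthest above it. Both studies had 4 members below the granuloma (Irf9, Oasl2, Tapbp and Lgals3bp, 11.4% of members, against 18.0% of all genes), 3 above it (Zbp1, Tap1 and Nmi, 8.57%, against 18.5%, all below 0 on the deposited values except Zbp1 in study 1), and 2 went opposite ways on these quantile-normalized values (Ifit1 and Eif2ak2, 5.71%, against 7.90%). 10 members passed only in study 2, 8 only in study 1 and 8 in neither. The plot of both studies gives all 35 differences.

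**Figure D1:**
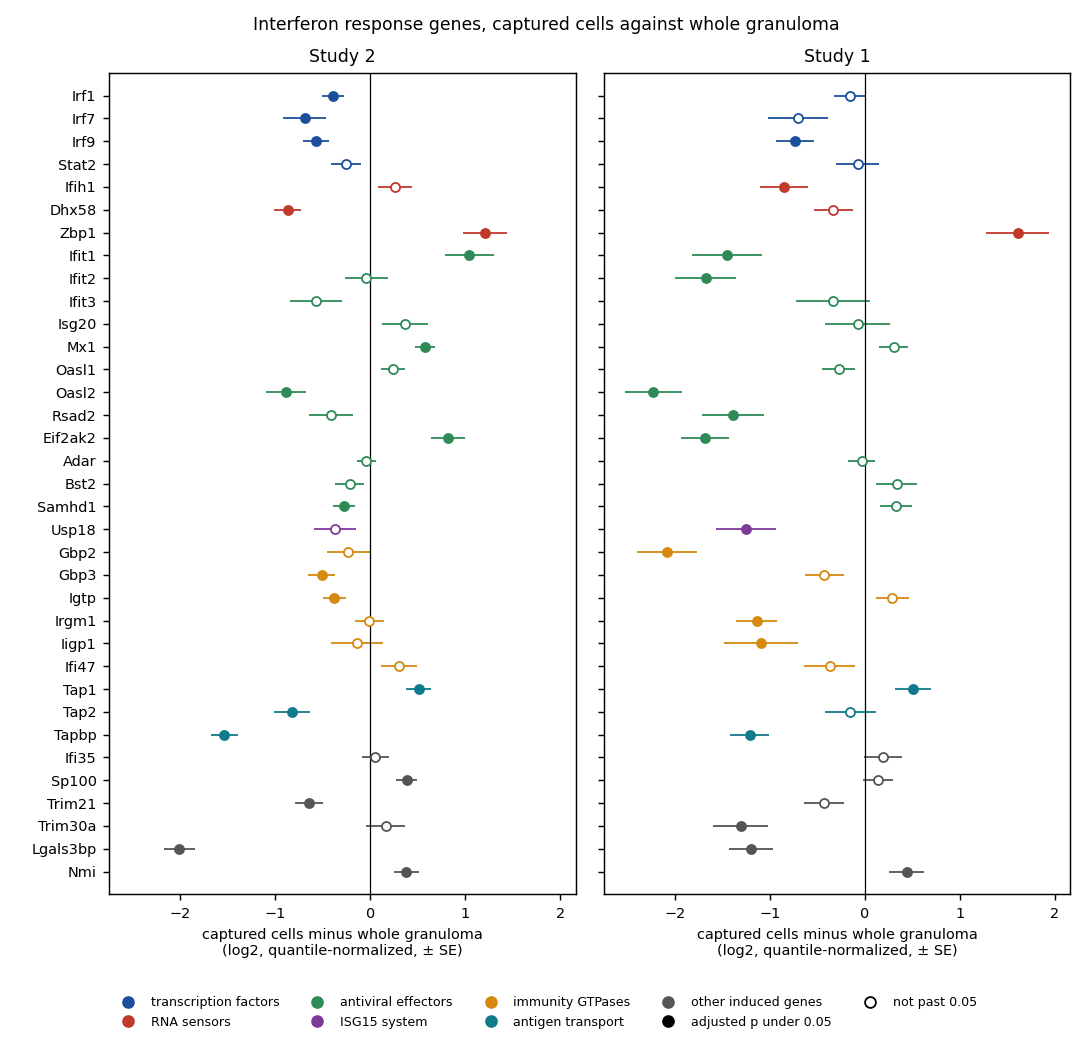
Difference of captured cells minus whole granuloma (log2, quantile-normalized) for 35 interferon response genes in study 2 (left) and study 1 (right). Points average the days that have both tissues, with equal weights, so day 46 of study 1 is left out. Bars are SE, filled points have an adjusted p under 0.05 and colours give the role of the gene. Lgals3bp, Tapbp, Irf9 and Oasl2 lie left of 0 in both panels, and Zbp1, Tap1 and Nmi lie right of 0 in both, while on the deposited values these 3 lie below 0 except Zbp1 in study 1 (0.84).

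Of the transcription factors, Irf9, the DNA-binding partner of STAT2 in the type I interferon complex, was lower in captured cells by 0.57 (SE 0.14, adjusted p = 0.00039) in study 2 and by 0.74 (SE 0.20, adjusted p = 0.0015) in study 1, in 14 of 15 and 5 of 5 paired specimens. Irf7, the factor that amplifies type I interferon production, was lower by 0.69 (SE 0.22, adjusted p = 0.0063) in study 2, and its difference of -0.70 in study 1 missed the threshold (adjusted p = 0.054). Irf1, a factor induced strongly by interferon gamma, was lower by 0.39 in study 2 (SE 0.12). Both of these calls of study 2 were lost with the 3-prime to 5-prime difference as a covariate, at 0.14 for Irf7 and -0.44 for Irf1. Stat2 passed in neither study, with differences of -0.26 and -0.07.

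Of the nucleic acid sensors, Zbp1, which binds left-handed double-stranded nucleic acid, was the member most above the granuloma. In study 2 its values ran from 6.25 through a median of 8.4 to 9.76 in captured cells, against 6.30 through 7.06 to 8.66 in whole granuloma. In study 1 they ran from 6.76 through 8.01 to 8.81 in captured cells, against 4.99 through 6.40 to 7.12 in whole granuloma. The ranges overlapped in both studies, while captured cells were higher in 14 of 15 pairs of study 2 and in 5 of 5 pairs of study 1. The difference was 1.2 (SE 0.23, adjusted p = 1.8e-05), 2.3-fold, in study 2 and 1.61 (SE 0.33, adjusted p = 6.9e-05), 3.05-fold, in study 1. On the deposited scale, where the median gene of study 2 was at -1.68, Zbp1 was 1.25 above that median, with an own difference of -0.43. A second, dimmer probe set of Zbp1 differed by -0.06 and -0.21 and did not pass, and the 3-prime to 5-prime covariate took the brighter one to -0.17 in study 2 and 0.89 (adjusted p = 0.093) in study 1.

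Dhx58, a relative of the RNA sensor RIG-I that lacks its signalling domain, was lower in captured cells of study 2. Its values ran from 4.38 through 4.67 to 5.82 in captured cells, against 5.07 through 5.55 to 6.99 in whole granuloma. It was lower in all 15 pairs, by 0.87 (SE 0.15, adjusted p = 1.8e-06), although 2 dimmer probe sets of Dhx58 were higher by 0.48 and 0.21. Only 1 of 15 captured and 6 of 15 granuloma averages of study 2 had Dhx58 above the array median. Ifih1, which encodes the RNA sensor MDA5, was lower in captured cells of study 1 by 0.85 (SE 0.25, adjusted p = 0.0038) and differed by 0.26 in study 2 (adjusted p = 0.20).

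Among the 12 antiviral effectors, 3 were higher and 2 lower in captured cells of study 2, and none was higher and 5 were lower in study 1. Oasl2, which encodes a protein related to the oligoadenylate synthetases, was lower in both studies. In study 1 its values ran from 3.54 through 4.05 to 5.82 in captured cells, against 5.74 through 6.30 to 7.79 in whole granuloma, so that the ranges barely met. The difference of study 1 was -2.23 (SE 0.30, adjusted p = 5.9e-08), 4.68-fold lower, and that of study 2 was -0.88 (SE 0.21, adjusted p = 0.00033), with lower values in 12 of 15 pairs. Only 1 of the 15 captured averages of each study had an Oasl2 value above the median of its array.

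Ifit1 and Eif2ak2 took opposite directions in the studies on quantile-normalized values. On the deposited scale both were lower in captured cells of study 2, as in study 1, Ifit1 by 0.76 (adjusted p = 0.0054) and Eif2ak2 by 0.93 (adjusted p = 1.4e-06), and with the 3-prime to 5-prime covariate Ifit1 was at 0.54 in study 2 (adjusted p = 0.57). Ifit1 ran from 5.66 through 6.69 to 8.93 in captured cells, against 4.04 through 5.83 to 7.10 in whole granuloma of study 2, and was higher by 1.04 (SE 0.26, adjusted p = 0.00048). In study 1 it ran from 3.81 through 4.99 to 6.17 in captured cells, against 5.08 through 6.40 to 7.94 in whole granuloma, and was lower by 1.45 (SE 0.37, adjusted p = 0.00082). Eif2ak2, which encodes the RNA-activated kinase PKR, was 4.48 through 4.89 to 7.46 in captured cells, against 4.13 through 4.37 to 4.93 in whole granuloma of study 2, a difference of 0.82 (SE 0.18, adjusted p = 0.00013). In study 1 Eif2ak2 was 4.18 through 4.94 to 6.38 in captured cells, against 6.37 through 6.79 to 7.36 in whole granuloma, a difference of -1.68 (SE 0.26, adjusted p = 6.1e-07). A second probe set of Eif2ak2 did the reverse, at -0.14 in study 2 (not past the threshold) and 0.75 in study 1 (past it), and none of the 15 granuloma averages of study 2 had Eif2ak2 above the array median.

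By their brightest probe sets, the other effectors that passed did so in one study. Ifit2, a second RNA-binding Ifit protein, was lower in captured cells of study 1, where it ran from 3.96 through 4.62 to 5.39, against 5.13 through 6.10 to 7.94 in whole granuloma, a difference of -1.67 (SE 0.32, adjusted p = 2.9e-05). Rsad2, which encodes viperin, ran from 6.38 through 6.94 to 8.58 in captured cells, against 6.86 through 8.95 to 10.07 in whole granuloma of study 1, a difference of -1.39 (SE 0.33, adjusted p = 0.00037). Its 2 dimmer probe sets passed in study 2, in opposite directions, at -0.66 and 0.50. Mx1, a dynamin-like GTPase that is defective in BALB/c mice, was higher in captured cells of study 2 by 0.58 (SE 0.11), but none of its averages in either tissue of that study lay above the array median. Samhd1, an enzyme that depletes deoxynucleotides, was lower in captured cells of study 2 by 0.28 (adjusted p = 0.032), a call kept in 7 of 15 fits that each left out 1 specimen. Its 3 dimmer probe sets all passed in study 1, at 1.24, 1.33 and -0.55, and none of them in study 2. Ifit3, Isg20, Oasl1, Adar and Bst2 passed in neither study, with differences between -0.57 and 0.37.

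Usp18, the protease that removes ISG15 from proteins and damps type I receptor signalling, was lower in captured cells of study 1 by 1.25 (SE 0.32, adjusted p = 0.00086) and differed by -0.37 in study 2. Among the 6 immunity GTPases none was higher in captured cells of either study, and 2 were lower in study 2 (Gbp3 and Igtp) and 3 in study 1 (Gbp2, Irgm1 and Iigp1). Gbp2 ran from 6.05 through 7.87 to 8.49 in captured cells, against 8.33 through 9.68 to 10.35 in whole granuloma of study 1, a difference of -2.09 (SE 0.32, adjusted p = 5.5e-07), 4.25-fold lower. Gbp2 did not pass in study 2, at -0.23 (adjusted p = 0.36), although its second probe set did at -0.76. Irgm1 and Iigp1, of the family that strips the membrane from vacuoles holding microbes, were lower in study 1 by 1.14 (SE 0.21) and 1.09 (SE 0.39), and differed by -0.01 and -0.14 in study 2. The second probe set of Iigp1 was higher by 1.00 in study 2. Ifi47, another GTPase of that family, passed in neither study, at 0.30 and -0.37. Gbp3 and Igtp, lower by 0.51 and 0.38 in study 2, were at -0.13 and 0.03 with each array centred on its median, which ended both calls.

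The 3 antigen-transport genes did not move together. Tapbp, which encodes tapasin, the chaperone that links the peptide transporter to MHC class I, ran from 7.91 through 8.88 to 9.67 in captured cells, against 9.52 through 10.56 to 11.39 in whole granuloma of study 2. It was lower in all 15 pairs, with a difference of -1.54 (SE 0.14, adjusted p = 2.7e-12), and in all 5 pairs of study 1, at -1.21 (SE 0.20, adjusted p = 2.8e-06). Its second probe set was lower by 0.87 in study 2 and differed by 0.07 in study 1. Tap2, a subunit of the transporter, ran from 5.97 through 6.99 to 9.18 in captured cells, against 6.84 through 7.94 to 8.91 in whole granuloma of study 2, and was lower by 0.83 (SE 0.19, adjusted p = 0.00020). With the 3-prime to 5-prime covariate Tap2 was at -0.063 (adjusted p = 0.93). Tap1, the partner subunit, was instead higher by 0.51 in study 2 (SE 0.13, adjusted p = 0.00079) and by 0.51 in study 1 (SE 0.19, adjusted p = 0.019). On the deposited scale Tap1 differed by -1.20 and -0.24, and with the 3-prime to 5-prime covariate by -0.17 and 0.14.

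Of the remaining induced genes, Lgals3bp, which encodes a secreted glycoprotein that binds galectin 3, had the largest difference of the 35 members in study 2. It ran from 5.79 through 6.70 to 7.61 in captured cells, against 7.81 through 8.63 to 9.58 in whole granuloma, and the ranges did not overlap. The difference was -2.01 (SE 0.16, lower in 15 of 15 pairs), 4.03-fold lower, in study 2 and -1.20 (SE 0.23, adjusted p = 3.4e-05, lower in 5 of 5 pairs) in study 1. Trim30a ran from 6.68 through 7.91 to 9.72 in captured cells, against 8.59 through 9.34 to 10.33 in whole granuloma of study 1, and was lower by 1.31 (SE 0.29, adjusted p = 0.00016). In study 2 it differed by 0.16 (adjusted p = 0.48), while its second probe set was lower by 1.14. Trim21, an antibody receptor of the cytosol, was lower by 0.65 in study 2 (SE 0.15, adjusted p = 0.00017). Sp100, a nuclear body protein, was higher by 0.38 in study 2, and Nmi, an interferon-induced adaptor protein, by 0.38 in study 2 and 0.44 in study 1. Sp100 lay above the array median in only 4 of 15 captured and 1 of 15 granuloma averages of study 2. Ifi35, a protein that binds Nmi, passed in neither study, at 0.05 and 0.20. With the 3-prime to 5-prime covariate Trim21 was at -0.36 in study 2 (adjusted p = 0.51), and Nmi at 0.090 in study 2 (adjusted p = 0.87) and 0.29 in study 1 (adjusted p = 0.36). Leaving out 1 specimen at a time kept Nmi past the threshold in 13 of 18 fits of study 1.

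By day, Lgals3bp was lower in captured cells at each of the 5 days of study 2, with differences of -2.66, -2.35, -1.79, -2.15 and -1.10 at days 7, 17, 33, 49 and 105 (SE 0.37 each). Tapbp was also lower at each of these days, at -1.92, -1.96, -1.30, -1.57 and -0.93. Zbp1 differed by 1.24, 1.55, 1.97, 0.43 and 0.83, of which days 17 and 33 passed. At day 49 Zbp1 was at 8.72, 6.25 and 9.76 in captured cells of specimens 1, 2 and 3. Specimen 2, which also had the highest captured Tap2 value of study 2 (9.18), stood apart over all genes, with a median deviation of -0.44 from its day and a 3-prime to 5-prime difference of 2.12, against 3.92 and 4.08 in the other 2. Without that specimen in both tissues, the difference over all days of study 2 was 1.45 for Zbp1, and Tap2 stayed past the threshold. Stat2 (-0.40) and Ifit3 (-0.84) passed as well, and the split was 7 higher and 14 lower, with no share of all genes given for that fit. Eif2ak2 was above the granuloma at days 7 and 17, by 1.74 and 1.05, and did not pass at days 33, 49 and 105, where it differed by 0.29, 0.79 and 0.21. Over the 5 days of study 2, 7, 8, 11, 6 and 6 members passed. These are 20%, 22.9%, 31.4%, 17.1% and 17.1% of the members, against 39.7%, 39.1%, 44.6%, 41.8% and 26.9% of all genes. In study 1 the counts at days 7, 17, 33 and 104 were 11, 13, 15 and 1, against 38.6%, 30.0%, 35.5% and 10.9%, with 1 specimen in each tissue at day 104, so that the spread there is that of the other groups. Gbp2 differed by -3.10 at that day. At days 7, 17 and 33 of study 1 the counts are 31.4%, 37.1% and 42.9% of the members.

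The 2 studies were also compared directly, by the difference of captured minus granuloma in study 2 minus that in study 1 over the shared days 7, 17, 33 and 104/105. It passed for 14 of 35 members (40%), against 44.9% of all genes tested, so the share of members was near the background. It was positive in 11 and negative in 3 of them, against 22.8% and 22.0% of all genes. With the 3-prime to 5-prime covariate the count was 7, for which no share of all genes is given. The positive differences were those of Ifit1, Eif2ak2, Gbp2, Ifit2, Trim30a, Oasl2, Ifih1, Irgm1, Rsad2, Usp18 and Oasl1. The negative ones were those of Lgals3bp, Samhd1 and Igtp. The largest was Ifit1 at 2.76 (SE 0.46, adjusted p = 7.5e-06), followed by Eif2ak2 at 2.50 (SE 0.33, adjusted p = 7.9e-08). Of the 9 macrophage markers, 5 had a positive difference between the studies and none a negative one, with a median of 1.30. The part of the macrophage share in the 11 positive members was not tested. These differences between the studies are on quantile-normalized values. On the deposited values, the median gene's tissue difference was -1.68 in study 2 and -0.60 in study 1. There only Ifit1 at 1.51, Eif2ak2 at 1.47 and Gbp2 at 0.98 stayed positive and past the threshold among the 11. Every other member that passed on that scale was negative.

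Other genes of the pathway were read from lists of genes that are no members. Their counts stand beside 34.4% higher and 35.4% lower over all genes in study 2, and 31.5% and 29.0% in study 1. Of 25 other interferon-induced genes, 3 were higher and 16 lower in captured cells of study 2 and 2 higher and 13 lower in study 1, with medians of -0.62 and -0.53. The scramblase gene Plscr1 was lower by 1.67 (SE 0.18) in study 2 and 1.86 (SE 0.25) in study 1, and Slfn2, a growth regulator of T cells, by 1.56 (SE 0.19) and 1.58 (SE 0.28). Of 6 MHC class I genes, 1 was higher and 4 lower in study 2 and none higher and 3 lower in study 1, among them H2-K1, which encodes a class I heavy chain, by 1.49 (SE 0.14) and 0.98 (SE 0.20). Of 18 genes for interferon receptors and signalling, 6 were higher and 6 lower in study 2 and 4 higher and 8 lower in study 1. Jak1, a kinase of both interferon receptors, was lower by 1.30 (SE 0.16) and 1.58 (SE 0.23). Ifngr2 was instead higher in both studies, by 0.33 (SE 0.11) and 0.73 (SE 0.15). Tlr7, at 0.88 in study 2 and -1.32 in study 1, and Tlr9, at -0.49 and 0.90, passed in opposite directions. Irf8, which myeloid cells and plasmacytoid dendritic cells also use, was lower by 1.88 (SE 0.33) in study 1.

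Before the days are compared, one specimen of study 2 has to be described, which was noticed after its values were seen. In specimen 1 of day 105 most interferon response genes were higher than in the other specimens of that day, in both tissues. A comparison within 1 day does not by itself tell a high specimen 1 from low other specimens. Of the 35 members, 27 were higher than in both other specimens of that day in the captured cells (77.1%), 33 in the whole granuloma (94.3%), and 27 in both. The same held for 36.6%, 39.3% and 24.2% of all genes tested. The median member lay 0.90 above the mean of the other 2 specimens in captured cells and 1.39 above it in whole granuloma, against 0.01 and 0.03 for the median gene.

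Isg20, an exonuclease that degrades RNA, was at 9.45, 6.78 and 5.37 in the captured cells of specimens 1, 2 and 3, and at 10.35, 8.09 and 6.98 in their whole granuloma. Ifit1 was at 8.84, 6.28 and 5.74 in captured cells and at 8.65, 5.65 and 5.38 in whole granuloma. Irf7 was at 8.60, 6.22 and 6.45 in captured cells and at 10.66, 7.65 and 7.99 in whole granuloma. All 3 genes were highest in specimen 1 in both tissues, by at least 2 log2 units over either other specimen. Iigp1 was at 11.21, 7.4 and 10.08 in captured cells and at 12.19, 8.94 and 10.94 in whole granuloma, so that specimen 2 stood low as well. Zbp1, at 8.97, 8.86 and 9.99 in whole granuloma, and Samhd1, at 11.86, 11.33 and 11.94, were the 2 members not highest in specimen 1 there.

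The captured average of specimen 1 rested on 2 arrays, whose titles carry different letters after the specimen number, 1 of them shared with the granuloma array. Both arrays lay above all 4 captured arrays of the other specimens for 19 of the 35 members. No such count was made over all genes, and the specimen was picked on these members, so the 19 are a description. For Ifit1 the 2 arrays of specimen 1 were at 8.81 and 8.87, and the other 4 between 5.05 and 7.51, both of them arrays of specimen 2. The 2 arrays of specimen 2 also lay apart for Ifit2 (7.6 and 4.5), Ifit3 (7.2 and 5.5) and Rsad2 (9.2 and 7.6). For Ifit2 and Ifit3 the higher of them exceeded 1 array of specimen 1, which was at 7.5 and 7.0. By role, the median shift in captured cells ran from 0.37 in the transcription factors to 1.34 in the immunity GTPases among roles with more than 1 member, and in whole granuloma from 1.00 in the other induced genes to 1.92 in the sensors.

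**Figure D2:**
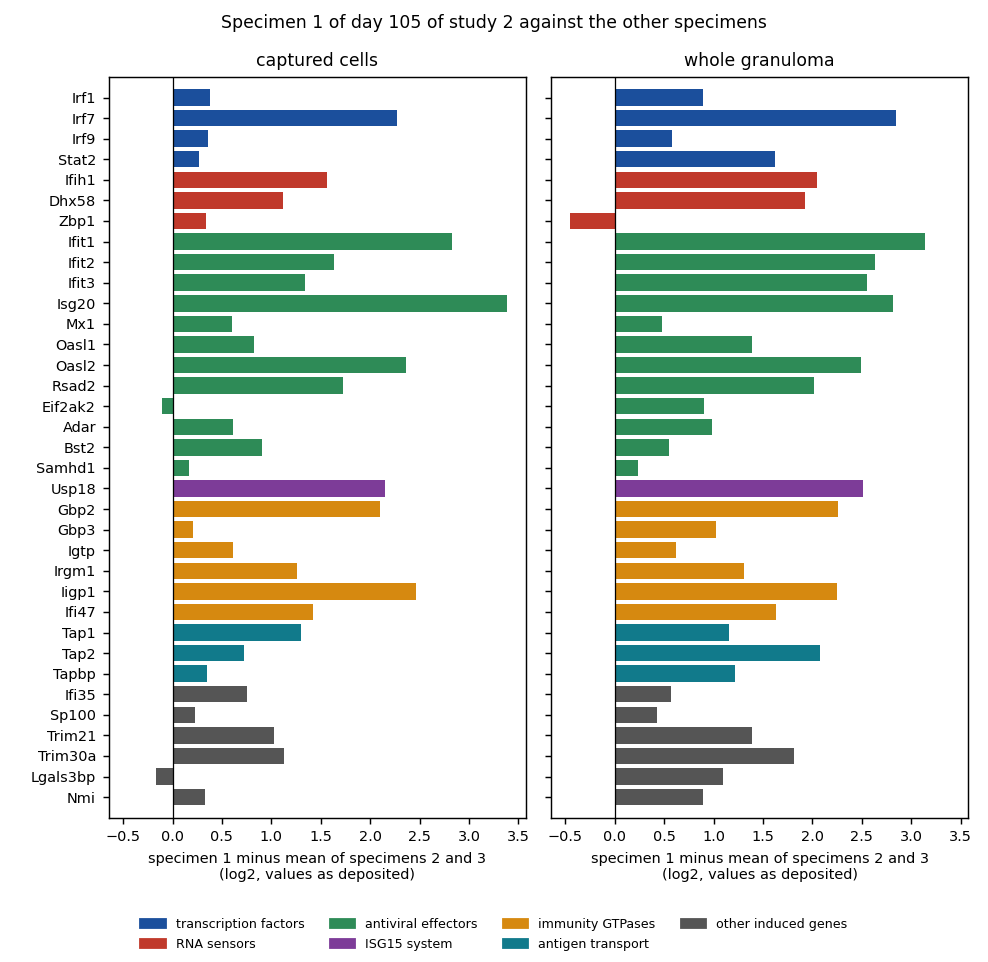
Value in specimen 1 of day 105 of study 2 minus the mean of specimens 2 and 3 (log2, as deposited) for the 35 members, in captured cells (left) and whole granuloma (right), coloured by role. All bars are positive except Eif2ak2 and Lgals3bp in captured cells and Zbp1 in whole granuloma.

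The same specimen was high for other genes. The interferon-induced chemokines Cxcl9, Cxcl10 and Ccl5, which attract T cells, were highest in it in both tissues, with medians of 2.70 in captured cells and 2.89 in whole granuloma above the other specimens. Of the 25 other interferon-induced genes, 20 were highest in it in both tissues. Of 9 plasma cell markers 8 were highest in it in both tissues, with medians of 0.62 and 0.70. Of 7 B cell markers 3 were highest in captured cells and all 7 in whole granuloma, with medians of 0.79 and 2.00. Of 9 macrophage markers 3 were highest in captured cells and 8 in whole granuloma, with medians of 0.24 and 1.02. Of 5 adipocyte markers 4 were highest in captured cells and all 5 in whole granuloma, with medians of 0.10 and 2.29, and of 6 T and NK cell markers 5 were highest in each tissue, with medians of 0.57 and 1.25. Of 5 plasmacytoid dendritic cell markers, among them the member Bst2, 4 were highest in captured cells and 3 in whole granuloma, with medians of 0.90 and 0.30. Of 8 neutrophil markers 3 and 5 were highest (medians -0.22 and 0.72), and of 8 fibroblast and smooth muscle markers 5 in each tissue (0.19 and 0.53). The part of these cells in the shift of the interferon genes was not tested. Among members with a promoter window, the median shift was 1.13 in captured cells and 1.62 in whole granuloma for the 13 with the letters of the response element, and 0.68 and 1.13 for the 16 without. The part of these letters in the shift was not tested, and no such split was made for the letters of the gamma-activated site.

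The other days of study 2 held no specimen this far from its day. The median member of specimen 1 of day 105 was 0.60 above the mean of its day in captured cells and 0.93 above it in whole granuloma, and that of specimen 2 was -0.54 and -0.51. Over the 12 specimens of the other days the medians ran from -0.18 to 0.17 in captured cells and from -0.40 to 0.39 in whole granuloma.

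**Figure D3:**
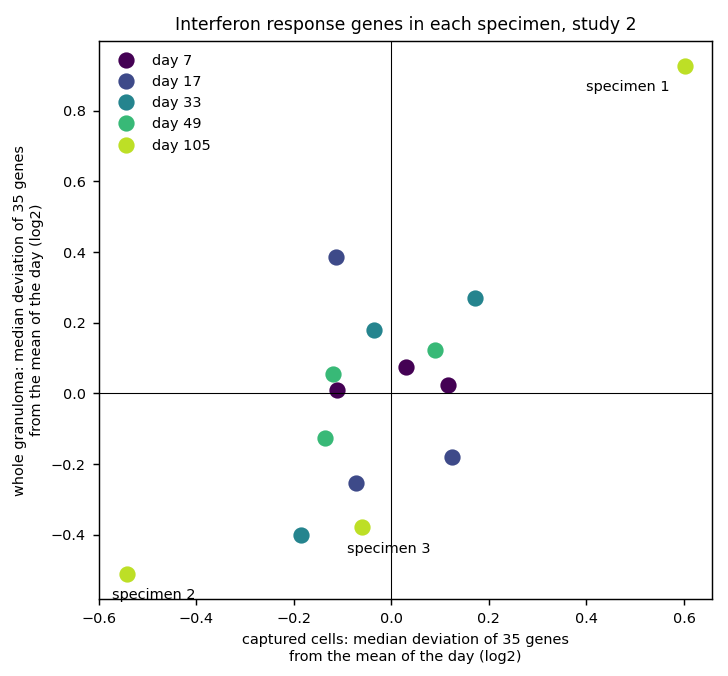
Median deviation of the 35 members from the mean of the day (log2, as deposited) in each of the 15 specimens of study 2, in captured cells (x axis) and whole granuloma (y axis), coloured by day. Specimen 1 of day 105 lies at 0.60 and 0.93, and specimen 2 of the same day at -0.54 and -0.51.

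Around the day means of study 2, correlations between members were computed on the deposited values as a description over 15 specimens, which share a study and a tissue. The median correlation between pairs of members was 0.31 in captured cells and 0.57 in whole granuloma, against 0.13 and 0.03 over all gene pairs. Without day 105, an alternative chosen after the data were seen, it was 0.10 in captured cells, against 0.16 over all pairs, and 0.32 in whole granuloma, against 0.04. The 6 immunity GTPases had a median of 0.71 in captured cells and 0.72 in whole granuloma, and 0.42 and 0.72 without day 105. Usp18 and Trim21 correlated at 0.97 in whole granuloma and at 0.95 without that day. Irf7 and Oasl2, the closest pair in captured cells at 0.95, stood at 0.57 without it. In whole granuloma the pair stood at 0.62, and at -0.42 without day 105. On quantile-normalized values the closest pair in captured cells was instead Stat2 and Ifit3, at 0.93.

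Across the days of study 2, no member passed the moderated F test of limma in captured cells, where 5 had an unadjusted p under 0.05 and 15.2% of all genes passed. In whole granuloma 3 members passed (8.57%, against 24.4% of all genes): Nmi (adjusted p = 0.0089), Samhd1 (adjusted p = 0.013) and Gbp2 (adjusted p = 0.045). In study 1 none passed in captured cells (2 at an unadjusted p under 0.05) or in whole granuloma (3 at an unadjusted p under 0.05), where 0.594% and 0.0349% of all genes passed. Without specimen 1 of day 105, 1 member passed in captured cells of study 2, Isg20, and 12 of the 35 passed in whole granuloma, against 17.1% and 28.8% of all genes. That specimen was picked on the values of these same members, so these counts are a description. Leaving out specimen 1 of day 49 instead gave 5 members in captured cells, and leaving out specimen 1 of day 17 or 3 of day 49 gave 5 in whole granuloma. Shares of all genes are not given for these fits, so their counts are not read as results about the members.

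Samhd1 in whole granuloma was at 10.43, 10.77 and 10.72 at day 7, at 11.38, 10.86 and 11.09 at day 17, at 11.52, 11.40 and 11.52 at day 33, at 10.18, 10.27 and 11.50 at day 49 and at 11.86, 11.33 and 11.94 at day 105. All 3 specimens of day 105 were above all 3 of day 7, and the difference was 1.07 (SE 0.30, adjusted p = 0.0094). Nmi in whole granuloma was at 9.87, 9.52 and 10.28 at day 7, at 9.28, 9.67 and 10.83 at day 17, at 8.76, 8.95 and 8.26 at day 33, at 9.89, 9.64 and 9.19 at day 49 and at 9.90, 9.10 and 8.90 at day 105. Its lowest day was day 33, where it was 1.23 below day 7 (SE 0.31, adjusted p = 0.016, 5.61% of all genes past the threshold) with no overlap. Gbp2 in whole granuloma was at 11.46, 11.25 and 10.74 at day 7, at 10.60, 11.17 and 10.56 at day 17, at 10.41, 10.58 and 9.71 at day 33, at 11.94, 11.29 and 10.59 at day 49 and at 11.15, 8.36 and 9.42 at day 105. Specimen 1 of day 105 lay inside the range of day 7 and the other 2 below it, and the difference was -1.51 (SE 0.49, adjusted p = 0.026).

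**Figure D4:**
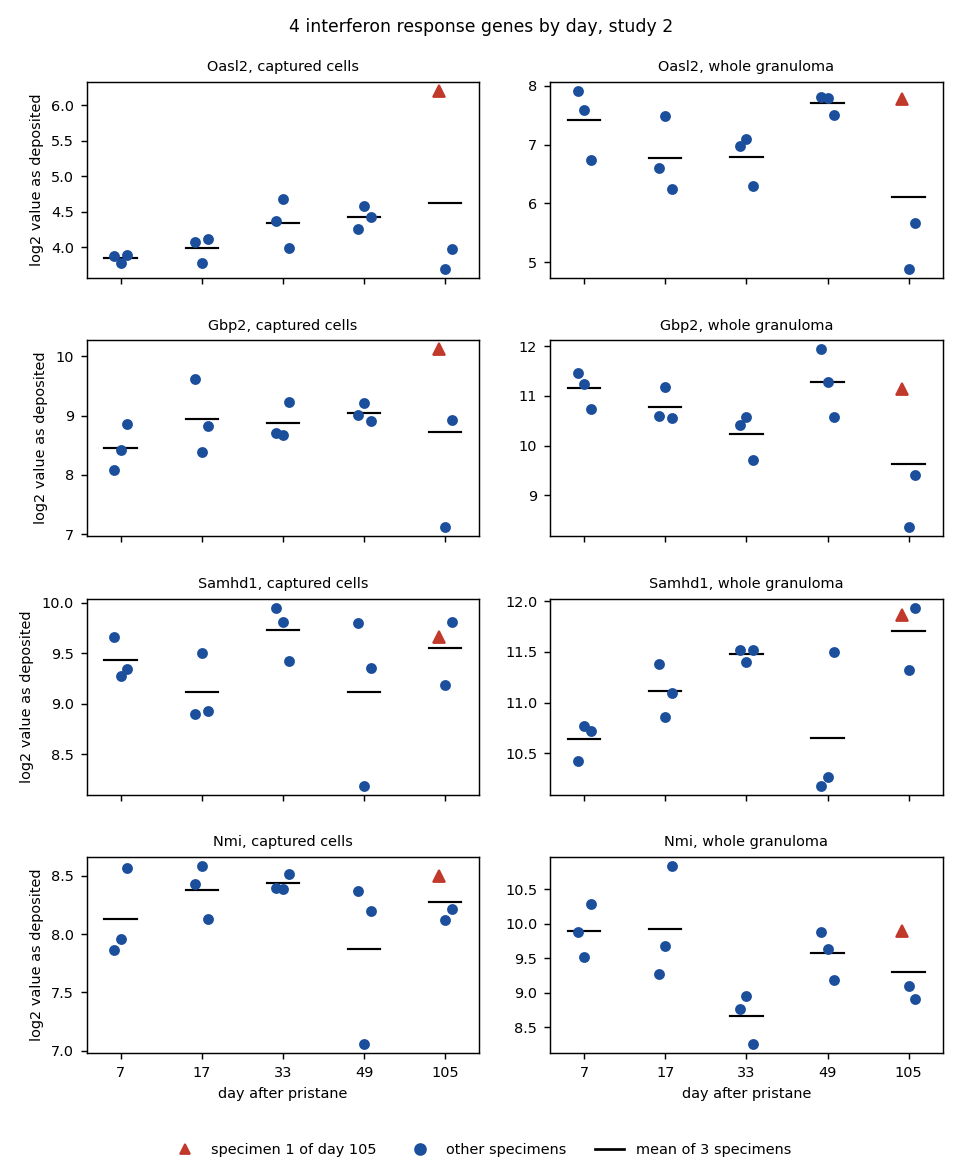
Deposited log2 values of Oasl2, Gbp2, Samhd1 and Nmi in captured cells (left) and whole granuloma (right) of study 2 by day after pristane, with 3 specimens a day. Black lines are day means and red triangles mark specimen 1 of day 105, which has an Oasl2 value of 6.20 in captured cells, against 3.70 and 3.98 in the other specimens of that day.

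At day 105 against day 7, 2 members passed in captured cells of study 2 (5.71%, against 6.82% of all genes) and 2 in whole granuloma, Samhd1 and Gbp2 (5.71%, against 18.9%). In captured cells Lgals3bp was at 7.14, 7.34 and 7.28 at day 105, against 5.57, 6.14 and 6.04 at day 7, so that the days did not overlap, and it was higher by 1.34 (SE 0.37, adjusted p = 0.019). Eif2ak2 was at 4.27, 4.20 and 4.55 in captured cells at day 105, against 6.96, 5.17 and 4.81 at day 7, and it was lower by 1.31 (SE 0.39, adjusted p = 0.033), with 1 high value at day 7 (specimen 1), without which no member passed. That call was at an adjusted p of 0.052 on quantile-normalized values. Irf7 in captured cells was at 5.55, 5.52 and 5.73 at day 7, at 5.62, 5.38 and 5.56 at day 17, at 6.18, 6.33 and 6.17 at day 33, at 6.03, 7.03 and 6.39 at day 49 and at 8.60, 6.22 and 6.45 at day 105. The 9 values of days 33, 49 and 105 all lay above the 6 of days 7 and 17, while the F test gave an adjusted p of 0.071.

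Without specimen 1 of day 105, 9 of the 35 members passed between days 105 and 7 in whole granuloma of study 2, 1 higher and 8 lower. Over all genes 24.5% passed, so the share of members was near the background. Specimen 1 was picked because most members were higher in it than in the other specimens of its day. Leaving it out lowers the day 105 means of those members by construction and keeps 2 specimens of that day. The 8 lower ones were Gbp2 (-2.26, SE 0.44), Oasl2 (-2.14, SE 0.42), Ifit1 (-1.84, SE 0.51), Isg20 (-1.62, SE 0.39), Ifih1 (-1.32, SE 0.41), Tap2 (-1.10, SE 0.39), Trim21 (-0.98, SE 0.34) and Nmi (-0.89, SE 0.34). Samhd1 was the higher one, at 0.99 (SE 0.34). In captured cells Lgals3bp alone passed without that specimen, at 1.39 (SE 0.40). Over the same days with all specimens, 3 of 9 macrophage markers were lower in whole granuloma, Arg1 at -3.32, Cd163 at -2.47 and Cd14 at -2.02, and 1 was higher, Gpnmb at 1.83. Of 9 plasma cell markers 5 were higher, among them Prdm1 at 2.10 and Irf4 at 1.56. Of 5 adipocyte markers 4 were lower, with a median of -2.94 over the 5, as were 3 of 8 fibroblast and smooth muscle markers and 2 of 8 neutrophil markers. Of 6 T and NK cell markers 1 was higher (Gzmb), as was 1 of 5 plasmacytoid dendritic cell markers (Ly6d). The part of these cells in the lower values of the 8 members was not tested.

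The change between days 105 and 7 was not shown to differ between tissues for any member of study 2 (limma, 9 members at an unadjusted p under 0.05, 3.41% of all genes past the threshold). The smallest p was that of Lgals3bp, whose day 105 minus day 7 value was 1.34 in captured cells and -0.26 in whole granuloma, a difference of 1.60 (SE 0.48, adjusted p = 0.054). In study 1 no member passed between days 104 and 7 in either tissue (limma, 1 at an unadjusted p under 0.05 in each, with 1.02% of all genes past the threshold in captured cells and 0 in whole granuloma), where the single specimen of day 104 takes its spread from the pooled fit.

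The spreads between arrays and between specimens come from unlike sets and do not compare array noise with specimen variation. Over the members, the median SD was 0.47 between arrays of the same specimen and tissue (25 with several arrays, most of them captured cells). It was 0.46 between specimens of a group, computed on averages of arrays in both tissues, where single members ranged between 0.27 and 0.87.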

How the data were processed

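Repeated linear amplification preceded hybridization, per the labels' protocols. A single table was deposited by the authors, with log2 values of 22690 probe sets on 82 arrays, and Partek and RMA are named in the submitters' processing notes without a version. GEO's platform annotation gave 20393 probe sets 1 symbol and 691 several, and did not list 1606. The number of arrays, not a read depth, limits the precision.

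Arrays of 1 specimen code and tissue were averaged (53 averages, 33 codes, 20 with both tissues). A gene was read from its brightest probe set (mean of all arrays, 1 symbol only), and was tested when above the array median in at least 3 averages. All 19 groups entered 1 fit in limma 3.58.1 (R 4.3.3, 34 residual degrees of freedom). The code, which pairs the tissues of a specimen, was a random block (correlation 0.112 on quantile-normalized and 0.121 on deposited values). The Benjamini-Hochberg threshold was 0.05. Fits without 1 specimen, without day 104/105 or without the filter kept these correlations. Code 003 and 1 array with no code in study 1 were kept as their own specimens. Captured arrays of study 1 carry dates in their titles, whose meaning is not stated and which were not used. Probe sets of a gene beside the brightest were tested in the same model over all probe sets. Tests were checked on simulated data. All 40 members could be named, and values were given for up to 8 members per study and 6 per set of days by size or p. Members and lists were chosen with earlier results of these data known. Alternatives were scaling, block, filter, probe set, 3-prime to 5-prime covariate, specimen coding and left-out specimens.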

Additional observations from a re-analysis of the deposited data

Results flagged for a closer look

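The tissue difference (captured minus granuloma) of 14 members differed between the studies by the interaction test, given as study 2 minus study 1 with the adjusted p. The positive ones were Ifit1 at 2.76 (7.5e-06), Eif2ak2 at 2.50 (7.9e-08), Gbp2 at 1.88 (0.00022), Ifit2 at 1.67 (0.0010), Trim30a at 1.5 (0.00095), Oasl2 at 1.49 (0.0016), Ifih1 at 1.18 (0.0029), Irgm1 at 1.18 (0.00052), Rsad2 at 1.01 (0.046), Usp18 at 1.00 (0.040) and Oasl1 at 0.62 (0.023). The negative ones were Lgals3bp at -0.78 (0.031), Samhd1 at -0.73 (0.0043) and Igtp at -0.64 (0.016). On this test 44.9% of all genes passed. These values are quantile-normalized, and on the deposited values only Ifit1, Eif2ak2 and Gbp2 of the positive ones stayed positive and past the threshold. In the 70 groups of 4 specimens that were examined for a single outlying specimen (a member in a group), none was found, and groups of 3, which include day 105 of study 2, are too small for that rule.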

How the results depend on the processing

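Scaling mattered most. Without any scaling between arrays (the median gene at -1.68 in study 2 and -0.60 in study 1), 0 members were higher and 34 lower in study 2, 1 higher and 28 lower in study 1, and 24 differed between studies. Of these 24, Ifit1, Eif2ak2 and Gbp2 were positive and all others negative. Genes are named as turned here only where the direction changed and the value passed the threshold with or without the alternative, and members that turned but passed under neither are left out. Those turned on the deposited scale were, in study 2, Ifih1 (-1.33), Zbp1 (-0.43), Ifit1 (-0.76), Isg20 (-1.45), Mx1 (-0.74), Oasl1 (-1.62), Eif2ak2 (-0.93), Ifi47 (-1.17), Tap1 (-1.20), Ifi35 (-1.72), Sp100 (-1.51), Trim30a (-1.65) and Nmi (-1.25), in study 1 Tap1 (-0.24), Ifi35 (-0.62), Sp100 (-0.66) and Nmi (-0.30), and in the study difference Irf9 (-0.73), Mx1 (-0.50), Oasl1 (-0.48), Usp18 (-0.27), Tap1 (-0.89), Sp100 (-0.82) and Nmi (-0.84). Centring on medians, under which 45.7% of all genes were higher and 27.1% lower in study 2, gave 6 higher in study 1 and turned Irf1 (0.020), Samhd1 (0.15) and Igtp (0.034) in study 2. With the 3-prime to 5-prime covariate 3 were higher and 6 lower in study 2, 1 was higher in study 1 (Mx1 at 0.50), 7 differed between studies and 2 between tissues over days, and Irf7 (0.14), Zbp1 (-0.17), Gbp3 (0.072) and Tap1 (-0.17) turned in study 2. All 14 lower calls of study 1 stayed past the threshold with it. Means of probe sets turned Trim30a (-0.49, study 2) and gave 1 member each for captured days, captured day 105 minus 7 and the tissue difference of days, and quantile values gave 1 for captured day 105 minus 7. The causes of these changes were not tested. Counts of members without a share of all genes, here or in the Results, describe the fits and are no result about the members.

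Leaving out 1 specimen gave 1 to 5 higher members in study 1 (1 without code 12 and 5 without code 10 of day 17), 0 to 5 for captured days of study 2 (5 without specimen 1 and 3 without specimen 3 of day 49, 2 without specimen 2 of day 105, and 1 without specimen 3 of day 7, 2 of day 49 or 1 of day 105) and 1 to 12 for granuloma days (12 without specimen 1 of day 105, 5 without specimen 1 of day 17 or 3 of day 49, and 1 without specimen 3 of day 33). It gave 0 to 3 for captured day 105 minus 7 (0 without specimen 1 of day 7, 1 without specimen 1 or 3 of day 105), 0 to 9 in granuloma (9 without specimen 1, 1 without 2 and 0 without 3 of day 105, and 0 and 1 without specimens 1 and 2 of day 7) and 0 to 4 for the tissue difference of days (4 without specimen 3 of day 7, 3 without specimen 1 of day 105, 2 without specimen 2 of day 49, and 1 without specimen 1 or 3 of day 49). Shares of all genes are given, in the Results, only for fits without specimen 1 of day 105, so the other counts describe the fits. Without the specimen as a block, study 2 kept 7 higher and 12 lower members, study 1 kept 3 and 14, the study difference had 12 (Rsad2 and Usp18 lost) and granuloma days had 2.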
